A study of Mus musculus with 6 samples.

Results

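Cytosolic ribosomal protein genes encode the protein part of the ribosome that translates nuclear messages. They were taken by symbol from the annotation of the array (names that begin with Rpl or Rps and a number, the stalk genes Rplp0 to Rplp2, and Rpsa, without S6 kinases and without pseudogenes). Each gene was read on 1 probe set with a single symbol, the one with the highest mean over the 6 arrays. The rule found 49 of the 18193 genes that the array names by a single symbol, 26 of the large and 23 of the small subunit. Of these, 46 had a mean log2 intensity of at least 4, the lower bound for testing, 24 of the large and 22 of the small subunit. Not every ribosomal protein is among them, because 110 further probe sets carry a matching symbol together with that of another gene, often a pseudogene, and are not named.

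RNA was taken from jejunal crypts, the pits of the small intestine in which stem cells divide, of C57BL/6 mice aged 3 months. There were 3 Sox9 deficient mice (KO 1 to KO 3) and 3 wild type littermate controls (WT 1 to WT 3), and each mouse gave 1 array. The study asked which genes Sox9, a transcription factor of the crypt base, regulates. The sources used here do not give how Sox9 was removed or in which cells. Values are the authors' log2 GCRMA intensities, differences are KO minus WT in log2 units, and errors are SD over the 3 mice of a group unless named otherwise. In bulk tissue, fewer cells of a type and less RNA per cell cannot be told apart.

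Each ribosome holds 1 copy of nearly all these proteins, and cells tend to make them in step. Their messages are among the most abundant of a dividing cell, and intestinal crypts, which renew the epithelium without pause, need many ribosomes. Most of these messages begin with a C and a run of pyrimidines, the 5′ terminal oligopyrimidine (TOP) tract, through which mTOR signalling and the binding protein Larp1 control their translation. Ribosomal protein S6, made from Rps6, is phosphorylated by S6 kinases downstream of mTOR. An array reads how much of a message is present, not how well it is translated.

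To show what the tract looks like, 30 bases around the annotated start of transcription are given for members the results turn on, read 5′ to 3′ on the strand of the gene, with 18 bases before the start and 12 from the start on. Capitals mark the longest run of C and T that touches the 20 bases on either side of the start, where it has at least 8 letters. All are RefSeq sequences of GRCm38.p6.
Rps6: gttaagcggaagtcgggCCTCTTTTTCgtg
Rpl14: gcagggcgggCCCTCTCTCTTCTCgctgag
Rplp2: cactgcgtcagcgTCTTCCTTTCgccgccg
Rpl22l1: tgcgtgcggcgcaagcccgTTCTCTTCCCa
Rpl27a: cgagacttcgtgagCTCCTCCCTTTTCCCT
Rps9: ccaaccgccttgTCTCTCTTTgtctcgggc
Rps4x: agtctgaggctgggcggagcaacccaggct
Rps15: cctcccggcagagctcgcgataactgcgca
Rpsa: gctgtgggttatttaaggacgtcatttccg
These windows lie at chr4:86857356-86857385 (minus strand, Rps6), chr9:120571499-120571528 (plus, Rpl14), chr7:141447633-141447662 (plus, Rplp2), chr3:28805490-28805519 (plus, Rpl22l1), chr7:109519177-109519206 (plus, Rpl27a), chr7:3704023-3704052 (plus, Rps9), chrX:102189380-102189409 (minus, Rps4x), chr10:80292413-80292442 (plus, Rps15) and chr9:120127748-120127777 (plus, Rpsa). The first 6 hold such a run across or next to the start, and the last 3 do not within the window searched. An annotated start can lie some bases from the start used in these cells, so that a missing run says nothing about the message.

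Over the windows of 300 bases (250 before and 50 from the start) that RefSeq gives for 43 of the 49 members, 24 of 51 windows (47.1%) held such a run near the start, against 21.0% of all 32851 windows. The ETS-type letters CCGGAAG, on either strand, stood in 41.2% of the member windows and 8.86% of all, and the SP1-type letters GGGCGG in 52.9% and 35.7%. The YY1-type letters AANATGGC stood in 15.7% and 6.05%. The SOX core AACAAT was in 2 of 51 (3.92%) and in 10.7% of all, and the TATA letters TATAAA in 11.8% and 13.6%. The letter motifs were searched on both strands and the pyrimidine run on the strand of the gene only. No motif contains another, and a match is letters in a window, not a bound site. The 100 bases before the start of Rps6 (chr4:86857368-86857467, minus strand) show the ETS-type letters, here in capitals:
Rps6: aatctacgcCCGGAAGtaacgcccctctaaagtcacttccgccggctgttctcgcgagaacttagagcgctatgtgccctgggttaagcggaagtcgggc
The difference between genotypes had a median of 0.12 in the 22 tested members with a pyrimidine run and 0.19 in the 18 without.

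Sox9 itself was on 3 probe sets, whose place relative to the deleted part is not known here. One gave 2.44, 2.75 and 2.42 in the KO mice against 7.61, 5.96 and 5.84 in the WT mice (limma adjusted p = 0.188). Another gave 5.33, 6.34 and 5.76 against 6.23, 5.38 and 2.68, and the last lay between 3.16 and 3.53 throughout, so that 1 of 3 separated the groups. The crypt epithelium markers were all measured (10 of 10), with a mean log2 intensity from 12.66 (KO 1) to 13.01 (WT 3), and all 6 fibroblast and all 4 smooth muscle markers lay under the bound for testing (highest 3.72). Markers of enterocytes, the absorptive cells of the epithelium, were bright as well, with a mean over 7 genes from 14.22 (WT 1) to 15.09 (KO 3). WT 1 and WT 2 carried Y-linked signal (mean 6.80 and 7.23) and the other 4 arrays did not (2.8 to 2.9). The Gapdh controls differed between the 3′ and the 5′ end by 0.37 to 0.91 on 5 arrays and by 1.75 on WT 3.

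The ribosomal protein genes lay slightly higher in the Sox9 deficient crypts nearly throughout, and none passed the test. Of the 46 tested members, 43 had a positive difference and 3 a negative one (Rps4l, Rps27l and Rpl27a), where 53.9% of all 18108 probe sets tested were positive. Among the 43, Rpl39 (0.0042) and Rps27 (0.06) lay just inside the bound for testing. The median difference was 0.14, or 1.10-fold, with the middle 50% of members between 0.08 and 0.24, and the median over all probe sets tested was 0.03. In limma, 0 of 46 had an adjusted p under 0.05 (all at 0.999, background 0.011%) and 0 had an unadjusted p under 0.05 (background 3.62%, 1.81% in each direction). The 95% interval of the difference included 0 in all 46 and stayed within 1 log2 unit in 41, so that a change of 2-fold in either direction lies outside the interval in those 41 genes.

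**Figure D1:**
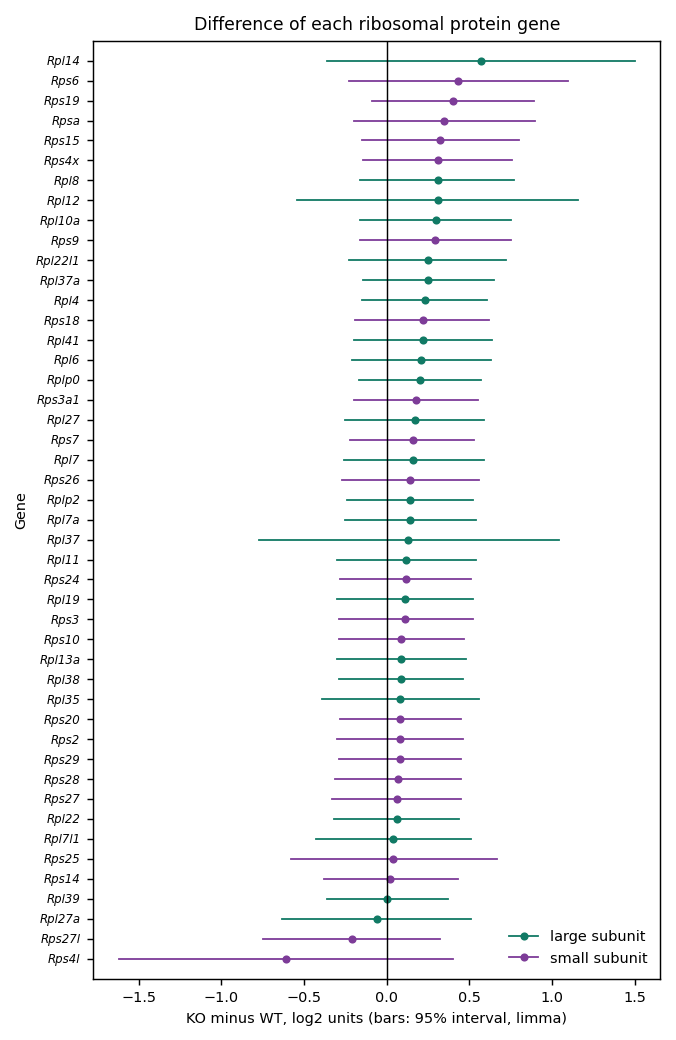
Each row is 1 ribosomal protein gene, the point its KO minus WT difference in log2 units (3 mice a group) and the bar the 95% interval from limma. The difference is positive in 43 of 46 genes, in Rpl39 (0.0042) by too little to see, and every bar crosses 0.

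In 17 of the 46 members (37.0%) every KO array lay above every WT array, and in 0 every KO array lay below, where the same held for 5.09% and 4.03% of all probe sets tested, 9.12% in either direction. All 17 were among the 36 members with a mean of 14 or more (47.2%), against 0 of the 10 tested below 14. Among probe sets at 14 or more without ribosomal symbols, every KO array lay above in 8.58%. The gap between the groups was under 0.1 in 14 of these 17. The count followed the scaling closely: with each array centred on the median of its tested probe sets it was 2 (Rpl10a and Rpl37a, background 3.47%), and with quantile normalization 14 (background 3.90%). Without WT 1 it was 32, where the background was 12.3%. The positive sign was less tied to the scaling, at 41 of 46 after median centring and 39 of 46 after quantile normalization.

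KO 1 and WT 2 stood at the ends of the range. KO 1 was the highest array in 32 of 46 members and WT 2 the lowest in 33, and in 22 members both held. Over all 18108 probe sets tested KO 1 was the highest in 4506 and the lowest in 4962, more often than any other array in either, and WT 2 was the lowest in 3741. Measured from the mean of each gene, the median member stood at 0.18 on KO 1, 0.03 on KO 2 and 0.02 on KO 3, and at 0.00 on WT 1, -0.18 on WT 2 and -0.05 on WT 3. The 4 remaining mice lay between -0.05 and 0.03. The median difference was 0.09 without KO 1, 0.08 without WT 2 and 0.05 without both, when 33 of 46 members were positive and 17 had both remaining KO arrays above both remaining WT arrays, with 4 below (background 18.9% and 15.8%). After median centring the same medians were 0.24, 0.01 and -0.08 for KO 1 to KO 3 and -0.01, -0.14 and -0.03 for WT 1 to WT 3, so that KO 3 then lay below WT 1 and WT 3.

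**Figure D2:**
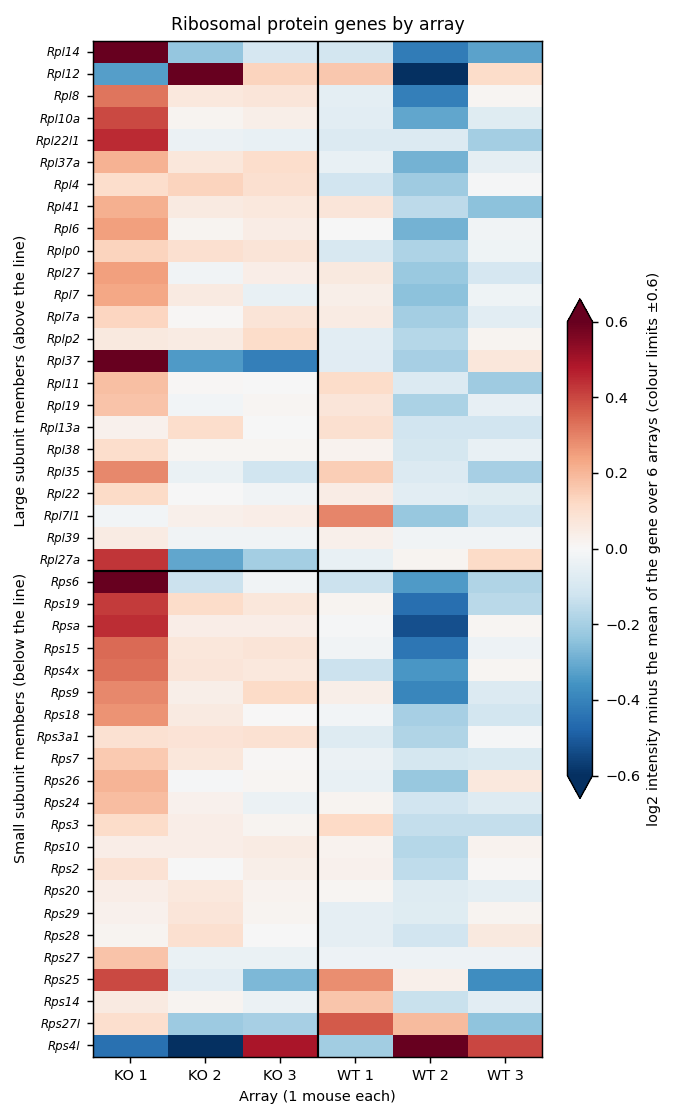
Rows are the 46 tested genes, large subunit above the line and small subunit below it, sorted by difference, and columns are the 6 arrays. Colour is the log2 intensity minus the mean of the gene. Colours stop at 0.6 either way. The column of KO 1 is mostly red (highest in 32 genes) and that of WT 2 mostly blue (lowest in 33), while in Rps4l at the foot KO 3, WT 2 and WT 3 are red.

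Of the 6 positive members with the smallest p, 4 belong to the small subunit. Rps19, a protein needed to mature the small subunit and mutated in inherited anaemia, read 15.21, 14.90 and 14.86 (14.99 ± 0.19) in KO and 14.81, 14.34 and 14.63 (14.59 ± 0.24) in WT. The KO arrays all lay above the WT arrays, by 0.05 at the nearest, and WT 2 lay lowest. The difference was 0.40 ± 0.20 (SE), 1.32-fold, with a 95% interval from -0.09 to 0.89 (limma adjusted p = 0.999, unadjusted p = 0.0968), and 0.16 without KO 1 and WT 2.

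Rps15, which helps export the small subunit from the nucleus, read 15.07, 14.80 and 14.81 in KO and 14.71, 14.30 and 14.70 in WT. The groups did not overlap, with WT 2 well under the rest. The difference was 0.32 (interval -0.15 to 0.80), or 0.19 without WT 2, and on another probe set 0.38. Rpsa, a small subunit protein also known as a precursor of the laminin receptor, read 14.99, 14.59 and 14.59 in KO and 14.54, 14.02 and 14.56 in WT. The gap between the groups was 0.03 there. The difference of 0.35 (interval -0.20 to 0.90) became 0.04 without KO 1 and WT 2 and 0.15 once Y-linked signal entered the fit as a term. With that term the WT level rests largely on WT 3, because only WT 1 and WT 2 carry the signal.

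Rps4x, the X-linked form of its protein, read 15.56, 15.30 and 15.29 in KO and 15.10, 14.88 and 15.24 in WT. The WT arrays with Y-linked signal, WT 1 and WT 2, were its lowest, and the gap between the groups was 0.04. The difference of 0.31 (interval -0.14 to 0.76) was 0.14 with the Y-linked term. No KO array carries Y-linked signal, and its part in the difference was not tested.

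Rps6 read 11.35, 10.42 and 10.53 in KO and 10.42, 10.21 and 10.37 in WT. KO 1 stood alone, and KO 2 and WT 1 met. The difference of 0.43 (interval -0.23 to 1.10) was 0.14 without KO 1.

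Large subunit genes differed by much the same. Their median was 0.15, with 23 of 24 positive, and that of the small subunit 0.12, with 20 of 22 positive. Rpl10a read 15.74, 15.36 and 15.38 in KO and 15.28, 15.03 and 15.27 in WT. Its groups were apart by 0.08, and the difference was 0.30 (interval -0.16 to 0.75), or 0.18 without KO 1. Rpl8, a protein close to the peptidyl transferase centre, read 14.76, 14.50 and 14.51 in KO and 14.38, 14.03 and 14.45 in WT, a difference of 0.31 (interval -0.16 to 0.77) that was 0.09 without KO 1 and WT 2 and 0.13 with the Y-linked term. Both kept the order of the whole family, KO 1 at the top and WT 2 at the foot.

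The stalk proteins, which recruit elongation factors to the ribosome, gave tight values near the top of the range. Rplp0 read 15.99, 15.95 and 15.93 in KO and 15.76, 15.67 and 15.83 in WT, a difference of 0.20 (interval -0.17 to 0.57). It was 0.14 without KO 1 and WT 2 and 0.13 with the Y-linked term, and the groups were apart by 0.10. Rplp2 read from 15.99 to 16.05 in KO and 15.88, 15.77 and 15.96 in WT, a difference of 0.14 (interval -0.24 to 0.52).

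**Figure D3:**
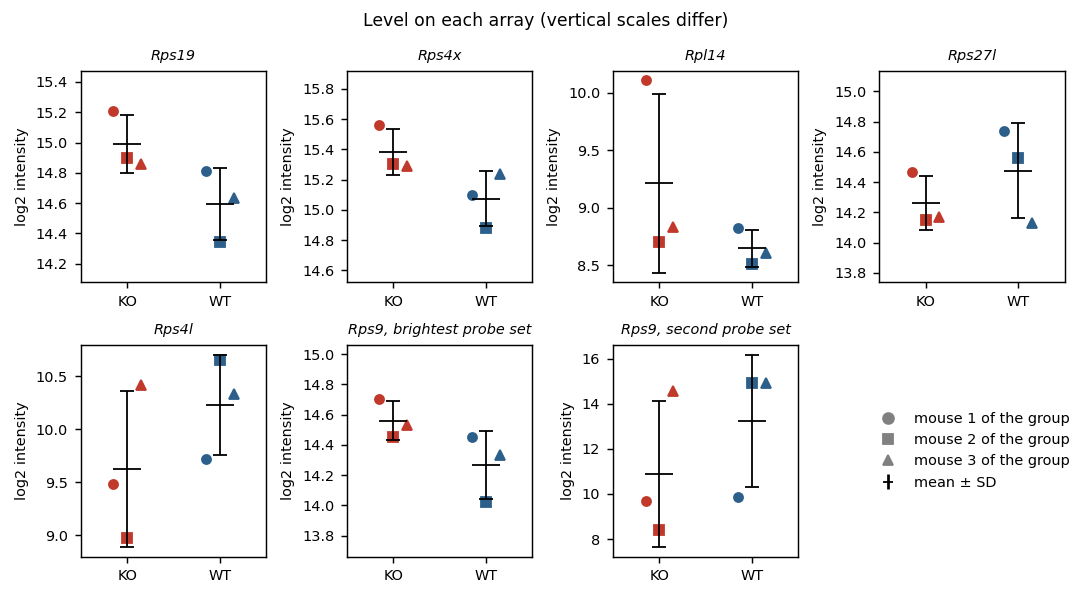
Log2 intensity on each array for 6 genes, with Rps9 on its brightest and its second probe set, 3 KO and 3 WT mice each, with mean and SD. The vertical scales differ between panels. The second Rps9 probe set spans from 8.42 to 14.94 while the brightest spans from 14.02 to 14.70.

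Of the 10 tested members with a mean below 14, KO 1 was the highest array in 7. The lowest array varied, being WT 2 in 4 and KO 3 in 3. Rpl14, a large subunit protein, read 10.11, 8.70 and 8.83 in KO and 8.82, 8.51 and 8.61 in WT. KO 1 lay far above the other 5 arrays, which overlapped. The difference of 0.57 (interval -0.36 to 1.5), the largest positive one, was 0.12 without KO 1. Rpl37, which binds zinc in the large subunit, read 13.26, 11.97 and 11.90 in KO and 12.24, 12.11 and 12.38 in WT. Without KO 1, both other KO arrays lay under every WT array, and the difference of 0.13 (interval -0.77 to 1.04) became -0.30. Rpl27a read 7.31, 6.57 and 6.68 in KO and 6.84, 6.90 and 7.0 in WT. The order was the same, KO 1 above and KO 2 and KO 3 below all WT arrays, and the difference of -0.06 (interval -0.63 to 0.51) was 0.08 without KO 2. Its other probe set lay under the bound for testing (mean 2.24). Whether either of them reads the Rpl27a message was not tested.

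Paralogues are copies of a ribosomal protein gene that can take its place in some tissues. Differences between paralogues were not tested. Rps27l, a paralogue of Rps27 known as a p53 target, was the one member at 14 or more with a negative difference. It read 14.47, 14.15 and 14.17 in KO and 14.74, 14.56 and 14.13 in WT. WT 3 was the lowest array and KO 1 lay under WT 2, so the groups overlapped, and the difference of -0.21 (interval -0.75 to 0.32) was -0.08 without WT 1 and -0.39 without WT 3. The Y-linked term, which leaves the WT level resting largely on WT 3, made it 0.13. Its 3 probe sets gave -0.23 to -0.21. Rps27 itself read 5.64, 5.43 and 5.43 in KO and 5.44 on each WT array, just inside the bound for testing. Only KO 1 lay apart, and KO 1 was also the highest array for Rpl39l, Rpl3l and Rps16, which lay under that bound. Whether this probe set reads the Rps27 message was not tested, so its values give no contrast with Rps27l.

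Rps4l, a paralogue of Rps4x, had the most negative difference and the largest SD over the 6 arrays (0.65). It read 9.48, 8.97 and 10.42 in KO and 9.72, 10.65 and 10.33 in WT. KO 1, KO 2 and WT 1 were low and KO 3, WT 2 and WT 3 high, a split across both genotypes, and the difference of -0.61 had an interval from -1.62 to 0.40. It was -0.28 without KO 2 and -1.01 without KO 3.

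Rpl22l1, the paralogue of Rpl22, read 15.07, 14.59 and 14.58 in KO and 14.54, 14.54 and 14.42 in WT, a difference of 0.25 (interval -0.23 to 0.72) that was 0.09 without KO 1. KO 2, KO 3, WT 1 and WT 2 were close together and KO 1 apart. Rpl22 itself read 15.53, 15.41 and 15.39 in KO and 15.46, 15.35 and 15.34 in WT, interleaved, and differed by 0.06 (interval -0.32 to 0.44), or -0.0063 with quantile normalization. Rpl7 read 15.33, 15.15 and 15.05 in KO and 15.13, 14.85 and 15.07 in WT, with KO 3 under WT 1 and WT 3, and differed by 0.16. Its paralogue Rpl7l1, which takes part in ribosome assembly, spanned from 9.74 (WT 2) to 10.26 (WT 1) and differed by 0.04, or by 0.19 without WT 1 and -0.07 without WT 2 (0.0011 after median centring). Rpl3l, the form of striated muscle (mean 2.56), and Rpl39l, the form of testis (2.40), lay under the bound for testing together with Rps16, whose single-symbol probe set read 2.11. Just inside the bound were Rpl39 (4.71), which spanned 0.07 over the 6 arrays, and Rps27 (5.47), which spanned 0.22. Whether the probe sets of Rps16 and Rpl39 read the messages of these genes was not tested either.

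Most members lay near the top of the scale. The mean was 14 or more in 36 of the 46, and the highest value of any probe set ran from 16.48 to 16.96 over the arrays. Among those 36 genes the SD over the 6 arrays fell with the mean (r = -0.70) and so did the absolute difference (r = -0.55), as a description across genes that share the same 6 arrays. Over all 46 tested members r was -0.44 for the SD and -0.08 for the absolute difference. Rps29 spanned from 16.28 to 16.43 and Rpl13a, often used as a reference gene, from 15.94 to 16.16, with differences of 0.08 and 0.09. Dimmer probe sets of Rpl13a (means 12.76 and 12.72) differed by 0.42 (interval -0.10 to 0.94) and 0.45 (interval -0.06 to 0.95), and the mean over all 4 by 0.27. Rpl13a is 1 gene, and the 10 tested members below 14 had a median difference of 0.05, against 0.15 in the 36 above. Whether the brightest values are compressed was not tested.

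**Figure D4:**
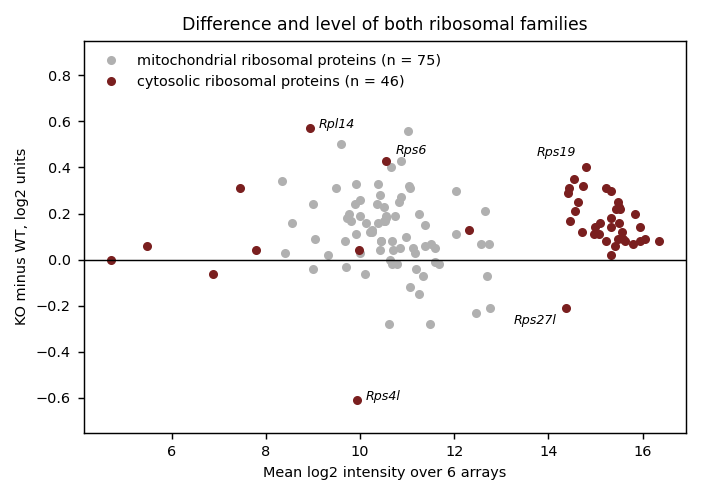
Each point is 1 gene, the horizontal axis its mean log2 intensity over 6 arrays and the vertical axis KO minus WT in log2 units. Of the cytosolic family 36 points lie at 14 or more, 35 of them above 0, and the highest of these is Rps19 (0.40, mean 14.79). The mitochondrial family lies between 8.34 and 12.75.

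Other probe sets above the same bound were compared, although they were less intense in the median (14.66 against 15.32 for ribosomal ones). Of the 374 probe sets at 14 or more, 141 hold a ribosomal symbol, alone or with others. The other 233 had a median difference of -0.01, with 47.2% positive and all KO arrays above all WT arrays in 8.58%. On them KO 1 stood at 0.00 and WT 2 at 0.07, while the 141 stood at 0.17 and -0.15.

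Probe sets the rule had set aside had KO 1 and WT 2 at the same ends, with the other arrays in a different order. The members have 56 further single-symbol probe sets, 44 of them tested, and their medians were 0.18 on KO 1 and -0.15 on WT 2, with 38 of 44 differences positive and 0 at an unadjusted p under 0.05 in limma. All KO arrays lay above all WT arrays in 8 of these 44 (18.2%), against 37.0% of the members. In between, WT 1 (0.03) stood above KO 2 (0.02) and KO 3 (-0.03). The 98 tested probe sets with several symbols stood at 0.19 on KO 1 and -0.15 on WT 2, with 91 of 98 positive, 22 (22.4%) with all KO arrays above and 1 at an unadjusted p under 0.05. They hybridise the same RNA on the same arrays and are not separate evidence about the genotypes. Of 20 members with more than 1 tested probe set, 15 were positive on all, 1 (Rps27l) negative on all and 4 mixed.

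Rps9 was the member whose probe sets parted most. Its brightest read 14.70, 14.45 and 14.53 in KO and 14.45, 14.02 and 14.33 in WT, a difference of 0.29. A second read 9.68, 8.42 and 14.56 in KO and 9.85, 14.94 and 14.94 in WT. KO 1, KO 2 and WT 1 were low, and they are the arrays that were low for Rps4l. The difference of -2.36 had an interval from -7.09 to 2.37. One Rpl22 probe set split otherwise. It read 10.30, 9.91 and 10.11 in KO and 9.04, 9.04 and 10.07 in WT, low on the arrays with Y-linked signal, with a difference of 0.72 (interval -0.05 to 1.49). These probe sets of Rps9 and Rpl22 were chosen after their values were seen.

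Genes that work with the ribosome were measured on the same arrays. Of 24 translation partners, mostly elongation factors and other messages with a TOP tract, 20 were measured, 0 passed in limma after adjustment (1 unadjusted, background 3.62%) and 18 were positive, with a median of 0.21. Hnrnpa1, an RNA-binding protein, read 11.88, 11.88 and 11.68 in KO and 11.18, 10.58 and 11.15 in WT, a difference of 0.84 (limma adjusted p = 0.999, unadjusted p = 0.0074). The histone chaperone Nap1l1 differed by 0.49 and the initiation factor Eif3l by 0.34. WT 2 was the lowest array in 16 of the 20. Of 23 regulators of TOP translation, 21 were measured, 0 passed (0 unadjusted) and 11 were positive, with a median of 0.02. The mTOR inhibitor Tsc2 differed by 0.34, the S6 kinase Rps6kb2 by 0.42 and the mTOR partner Mlst8 by 0.22, these having the smallest p. Larp4, an RNA-binding relative of Larp1, differed by -0.48, the mTOR partner Rictor by -0.36 and Larp1 by -0.01. KO 1 was the lowest array in all 3, at 9.30 for Larp4 where the other 5 lay between 10.70 and 10.75. Over the 21 regulators KO 1 was the lowest array in 7 and WT 2 in 8.

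The 33 ribosome assembly genes had a median of 0.30, with 31 positive, 0 passed in limma after adjustment and 1 unadjusted (Tsr1, 0.62), where 3.62% of all probe sets did. WT 2 stood at -0.56 and was lowest in 23 of them. The proteins of the mitochondrial ribosome, the other ribosome of the cell, had a median of 0.11, with 59 of 75 positive and 0 passed (0 unadjusted). KO 1 was highest in 56 of the 75 (median 0.42) and WT 3 lowest in 51 (median -0.32), while WT 1 stood at 0.21. So KO 1 was the top array in both ribosomal families, while WT 2 was lowest in 33 of 46 cytosolic and 7 of 75 mitochondrial members. The difference between the families was not tested.

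**Figure D5:**
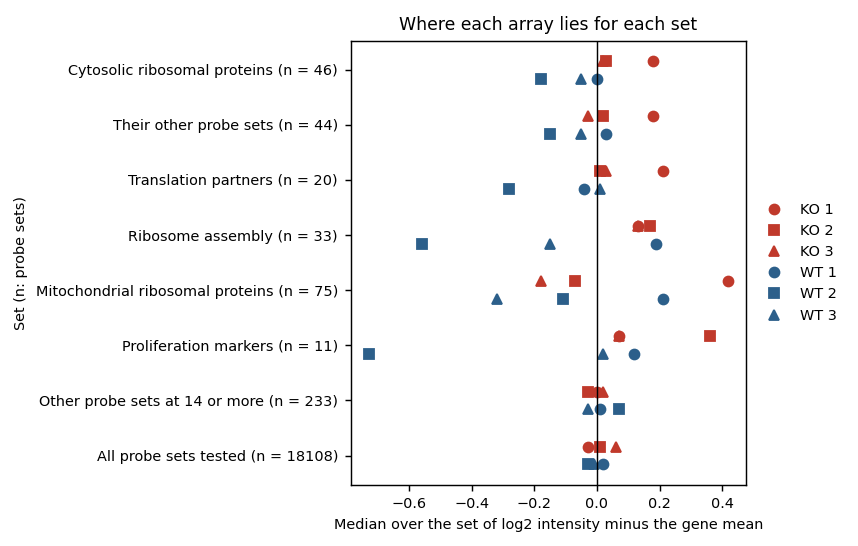
Each symbol is 1 array, placed at the median over a set of genes or probe sets of the log2 intensity minus the mean of each. KO arrays are red and WT arrays blue. For the cytosolic family KO 1 stands at 0.18 and WT 2 at -0.18, and for proliferation markers WT 2 stands at -0.73.

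WT 2 was also the lowest array in all 11 measured markers of dividing cells, with a median of -0.73, where the other arrays stood between 0.02 and 0.36. The mean log2 intensity of that list was 9.24 on WT 2 and 10.02 to 10.29 on the others, KO 1 included (10.02). KO 1 had the highest value of Igha, the antibody heavy chain of gut plasma cells (15.45), and of Jchain. KO 2 had that of the other B lineage markers, Cd79a, Cd79b and Ms4a1. The mean over these 5 was 8.96 on KO 1, 9.27 on KO 2 and 6.66 on KO 3, and ranged from 5.12 to 7.63 in WT. T and NK lymphocyte markers (8 on the array) ranged from 6.88 to 7.17 in KO and from 5.14 to 7.40 in WT, where WT 2 was highest. The mean over 5 Paneth cell markers ran from 12.13 to 12.88 in KO and from 13.61 to 14.17 in WT, mostly through Mmp7, which differed by -4.71. Lyz1, Pla2g2a and Itln1 differed by -0.75, -0.72 and -0.58, and Ang4 by 0.06. Of 7 enterocyte markers, 5 had a positive difference and 2 a negative one. Alpi (0.95) and Apoa4 (0.82) were the highest and Anpep (-0.08) the lowest. The part of any of these in the ribosomal protein values was not tested.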

How the data were processed

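The deposited values are log2 intensities per probe set. Per the submitters' processing notes the authors used GCRMA and limma, whose versions these notes do not state. GCRMA subtracts a background modelled from probe sequence, equalizes intensities between arrays and leaves dim probe sets near a shared floor. Array controls (64) were left out of 45101 probe sets, and the 18108 whose mean reached 4 were tested. Precision is limited by 3 arrays per group, for which the smallest exact two-sided permutation p is 0.1.

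The genotypes were compared in R 4.3.3 by limma 3.58.1 (lmFit, eBayes, two-sided), with Benjamini-Hochberg adjustment over all 18108 and a threshold of 0.05. Residual degrees of freedom were 4 and prior ones 2.59, and the code was tested on simulated data. Symbols come from the platform annotation, of which 34741 of 34945 single-symbol probe sets matched RefSeq genes of GRCm38.p6. Of columns belonging to other samples there were 0. Named genes were the members of smallest p in each direction, paralogues, stalk proteins and Rpsa, and those of extreme intensity or spread. The members, lists and this rule were chosen with earlier results of these data known. Array weights, other filters and normalizations, a replicate block, other probe sets and left-out arrays were tried. Terms for Y-linked signal and for the Gapdh ends, a bound of 14 and leaving out KO 1 with WT 2 were added after seeing the data. With the Y-linked term the WT level rests largely on WT 3, the array whose Gapdh ends differed most. The labels call the mice littermates and do not say which share a litter.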

Additional observations from a re-analysis of the deposited data

How the results depend on the processing

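Members past limma's adjusted threshold numbered 0 under every alternative run, as did those of the 4 other lists. Over all probe sets the 2 calls became 0 with no filter, 1 with a bound of 6, 4 with quantile normalization, 4 with median centring, 11 with array weights, and 0 to 16 with 1 array left out (16 without WT 3). They were 0 with KO 1 and WT 2 both left out, with a Y-linked term, with a Gapdh term and with a bound of 14. The replicate block gave 0 calls. It left the member median at 0.14 by construction, because each number holds 1 KO and 1 WT array. Whether the numbers pair the mice is not known. Deviations of same-numbered arrays correlated at -0.05, -0.29 and 0.03, which cannot tell whether those mice share a litter.

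The member median stayed between 0.08 and 0.19 except without KO 1 and WT 2 (0.05). Non-overlapping members numbered 2 after median centring and 17 to 32 with 1 array left out, both directions together. With fewer arrays non-overlap is more common: without KO 1 it was 17 above and 4 below (background 2552 and 1813 of 18108 probe sets), and without WT 1 it was 32 above and 0 below (2236 and 1466 of 18108). Some named members changed sign, up to Rpl37 (0.13 as reported) at -0.37. Quantile normalization gave -0.0063 for Rpl22, -0.0045 for Rpl39 and -2.4e-05 for Rpl7l1, median centring -0.03 for Rpl39, array weights -0.22 for Rpl37 and -0.02 for Rpl39, and the mean of probe sets -0.07 for Rpl7l1. For Rps4x, Rps6 and Rpsa that mean takes in a probe set at the floor, which brings a difference towards 0 by construction. Rpl7l1 has no probe set at the floor, and its 3 gave 0.04, 0.02 and -0.27. Without KO 1 and WT 2 they were -0.37 for Rpl37, -0.03 for Rpl39, -0.00013 for Rpl7 (at most 0.23 with arrays left out), -0.05 for Rpl7l1 and -0.01 for Rps27. A Y-linked term gave 0.13 for Rps27l, and a Gapdh term 0.05 for Rpl27a and -0.02 for Rpl7l1. With 1 array left out, ranges that crossed 0 were -0.30 to 0.37 for Rpl37, -0.02 to 0.02 for Rpl39, -0.01 to 0.10 for Rps27, -0.29 to 0.08 for Rpl27a and -0.07 to 0.19 for Rpl7l1. The cause of these changes was not tested.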
